A study of Homo sapiens with 4 samples.

Results

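The 42 genes described here code for core proteins of the spliceosome, out of 51714 Ensembl gene identifiers in the deposited files, and all 42 were found. They were chosen as a list of snRNP and core spliceosome genes, with earlier results of these data known. RNA was sequenced from Raji cells, an established Epstein-Barr virus-positive B cell line from a Burkitt lymphoma. The R1810A group (2 libraries) made a recombinant, HA-tagged RPB1, the largest polymerase II subunit, in which alanine replaces an arginine of the C-terminal domain (R1810A). The WT group (2 libraries) made the same recombinant subunit with that arginine kept. In both groups the subunit resists α-amanitin, it came from a transfected expression vector, and the cells were polyclonal batches selected with G418 for 6 to 12 days and then with α-amanitin for 10 days, so that the endogenous polymerase was blocked in WT cells too. The comparison asks whether expression differs when this arginine, a methylation site, is lost. The labels do not say whether the replicate libraries stem from independent cultures. The p-values therefore set the difference between groups only against the variation between these libraries, and that variation may be technical.

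Splicing removes introns from transcripts made by RNA polymerase II, and each spliceosomal snRNP is an snRNA with its proteins. U1 binds the 5′ splice site and U2 the branch site. The U4/U6.U5 tri-snRNP then joins and is rearranged, with the Prp19 complex, into the catalytic machine. Sm proteins form a ring on the U1, U2, U4 and U5 snRNAs, whereas LSm proteins form a related ring on the 3′ end of U6. Several of these proteins carry methylated arginine themselves, among them SNRPB, SNRPD1 and SNRPD3, which are substrates of PRMT5.

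Ribosomal RNA was depleted from total RNA before sequencing. Summed gene counts were 2116444 and 2081636 in R1810A and 2326036 and 2991959 in WT. All 7 B cell markers summed here, such as MS4A1 and CD79A, had reads, with summed levels of 9461 to 10310 CPM in R1810A and 7927 to 10550 CPM in WT, where CPM is the gene's count scaled to a common library size with TMM factors. Of the markers of other cells, 3 of 4 epithelial, 4 of 4 erythroid and 2 of 4 T cell genes had 0 reads in every library. The 5 myeloid markers summed to 181.9 to 274.8 CPM in R1810A and 148.2 to 223.5 CPM in WT, mostly from CSF1R, while CD14 had 1 read in 1 library of each group. POLR2A itself, whose counts do not separate vector from endogenous gene, had 953 and 1044 CPM in R1810A and 876 and 854.5 CPM in WT. CARM1, the methyltransferase known to act on this arginine, had 288 and 267 CPM in R1810A and 299.7 and 357 CPM in WT, and neither gene was called (edgeR adjusted p = 0.655 for POLR2A and 0.647 for CARM1).

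The genes of the spliceosome proteins differed far more among themselves than between the groups. On the deposited RPKM scale, which divides counts by gene length and total reads, the mean over the 4 libraries ran from 0.763 for SNRPE to 168 for SF3B5, a 219-fold range with a median of 12.3. Their reads together made up 0.540% (exact 95% interval 0.530 to 0.550%) and 0.545% (0.535 to 0.555%) of all gene counts in R1810A. The WT shares were 0.529% (0.519 to 0.538%) and 0.519% (0.511 to 0.527%). These intervals cover counting error only. The order depends on what the reads are divided by: of the deposited total reads, the same genes took 0.285% and 0.275% in R1810A and 0.300% and 0.287% in WT.

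**Figure D1:**
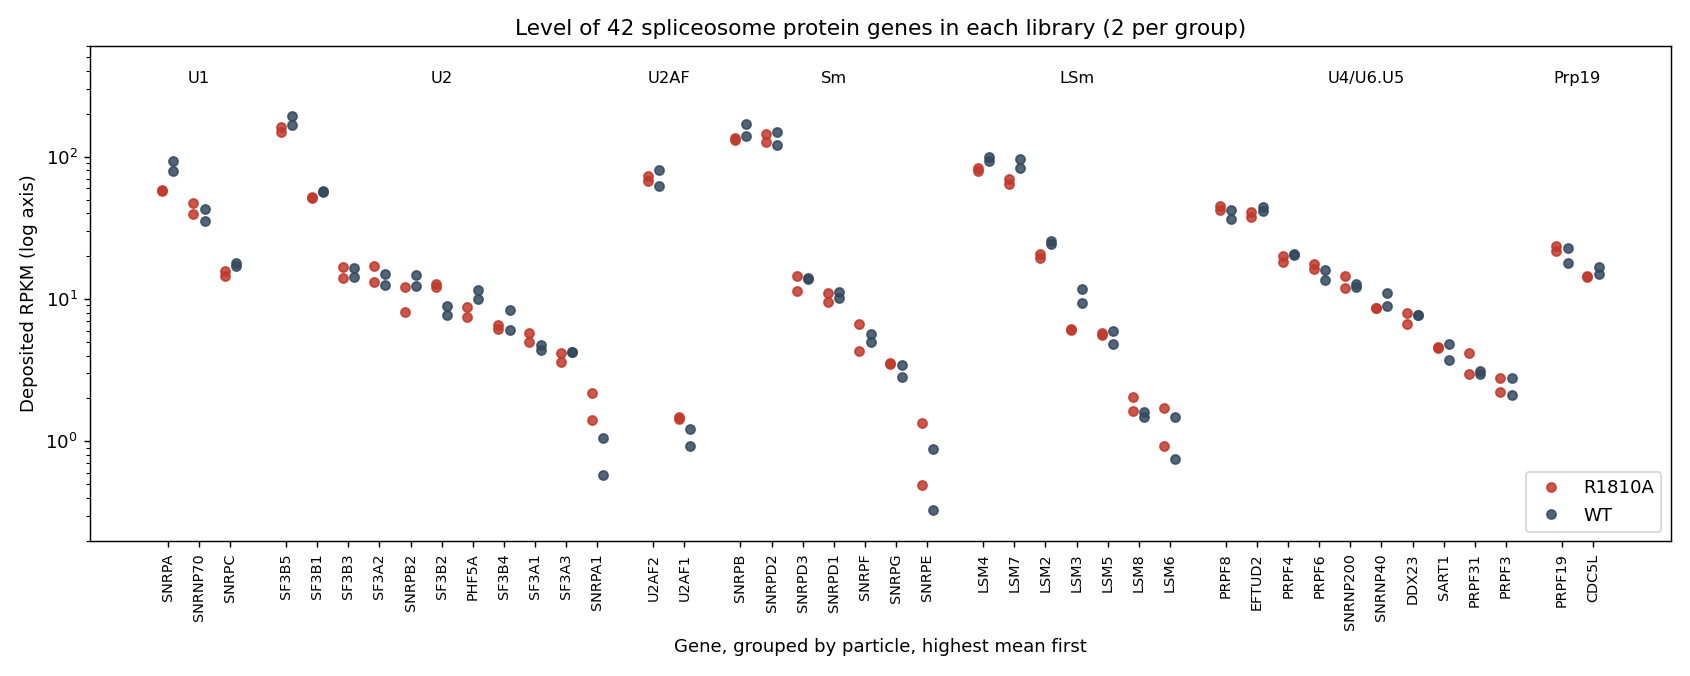
Deposited RPKM (vertical, log axis) of the 42 genes in each library, with R1810A points left of WT points, grouped by particle and ordered by mean level. SF3B5, SNRPB and SNRPD2 lie above 100 RPKM on average and SNRPE lies lowest at 0.763 RPKM.

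Within each particle the order of mean RPKM over the 4 libraries was as follows. Of the U1 genes, SNRPA (72.0) lay above SNRNP70 (41.2) and SNRPC (16.3). Of the U2 genes, SF3B5 (167.5) and SF3B1 (54.2) led, the others ran from 15.4 (SF3B3) to 4.06 (SF3A3), and SNRPA1 came last (1.31). LSM4 (88.7) and LSM7 (78.2) lay far above LSM2 (22.6), LSM3 (8.34), LSM5 (5.52), LSM8 (1.70) and LSM6 (1.22), a 72.5-fold range within 1 ring. The U4/U6.U5 genes were closer together, over a 16.8-fold range from PRPF8 (41.5) and EFTUD2 (41.03), which did not differ beyond their spread, to PRPF3 (2.47). PRPF19 (21.4) lay above CDC5L (15.2). These orders depend on the deposited lengths, which exceed the longest coding transcript in GENCODE 29 for 27 of the 42 genes and fall short of it for 13, from 0.325 times for SNRPD1 to 6.63 times for U2AF1. Per length of that transcript, LSM7 (70.4) would lie above LSM4 (53.2), SNRNP70 (87.3) above SNRPA (71.1) and SNRPD3 (21.0) further above SNRPD1 (3.41).

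Of the 41 genes that passed the low-count filter, none passed an adjusted p of 0.05 in either direction with edgeR, DESeq2 or limma-voom. Of all 10674 genes tested, edgeR called 0.347% higher and 0.00937% lower in R1810A, DESeq2 0.365% higher and 0.0187% lower, and limma-voom 0.225% higher and 0.00937% lower. SNRPE, the ring protein with 20 reads in all, did not pass the filter. At an unadjusted p under 0.05, 6 of the 41 were higher (14.6%, against a background of 4.94%) and 2 were lower (4.88%, against 3.06%). The 6 were SF3B2, SNRPA1, U2AF1, PRPF8, SF3A1 and PRPF6, and the 2 were LSM3 and SNRPA. DESeq2 gave 1 higher and 2 lower at that limit. With edgeR, 3 were higher without R1810A replicate 1 and 1 without R1810A replicate 2, and 4 were lower without WT replicate 2. Scaled by the deposited total reads, 2 were higher and 4 lower. Shares of all genes at that limit are given for the main fit only, so the counts from these other fits have no background.

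Both libraries of R1810A exceeded both of WT for 14 of the 41 genes (34.1%, background 19.8%) and both lay below for 7 (17.1%, background 19.5%), after TMM scaling. Divided by the deposited total reads, as in RPKM, the balance turned, for the 41 and for all genes alike. Then 8 of the 41 lay above (19.5%, background 9.77%) and 16 below (39.0%, background 36.4%). SNRNP70, PRPF19, SNRNP200, SART1, PRPF31 and LSM5 overlapped on that scale. SF3B1, SF3B5, SNRPB, EFTUD2, PRPF4, SNRPB2, SF3A3, SNRNP40 and CDC5L, which overlapped after TMM scaling, lay below WT without overlap on it. The median log2 fold change of R1810A over WT was 0.11 over the 41 genes and 0.00 over all genes tested. Leaving out WT replicate 2 gave 0.01 and R1810A replicate 1 gave 0.00, and leaving out WT replicate 1 or R1810A replicate 2 gave 0.06. In bulk RNA, fewer cells of a kind and less RNA per cell cannot be told apart.

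**Figure D2:**
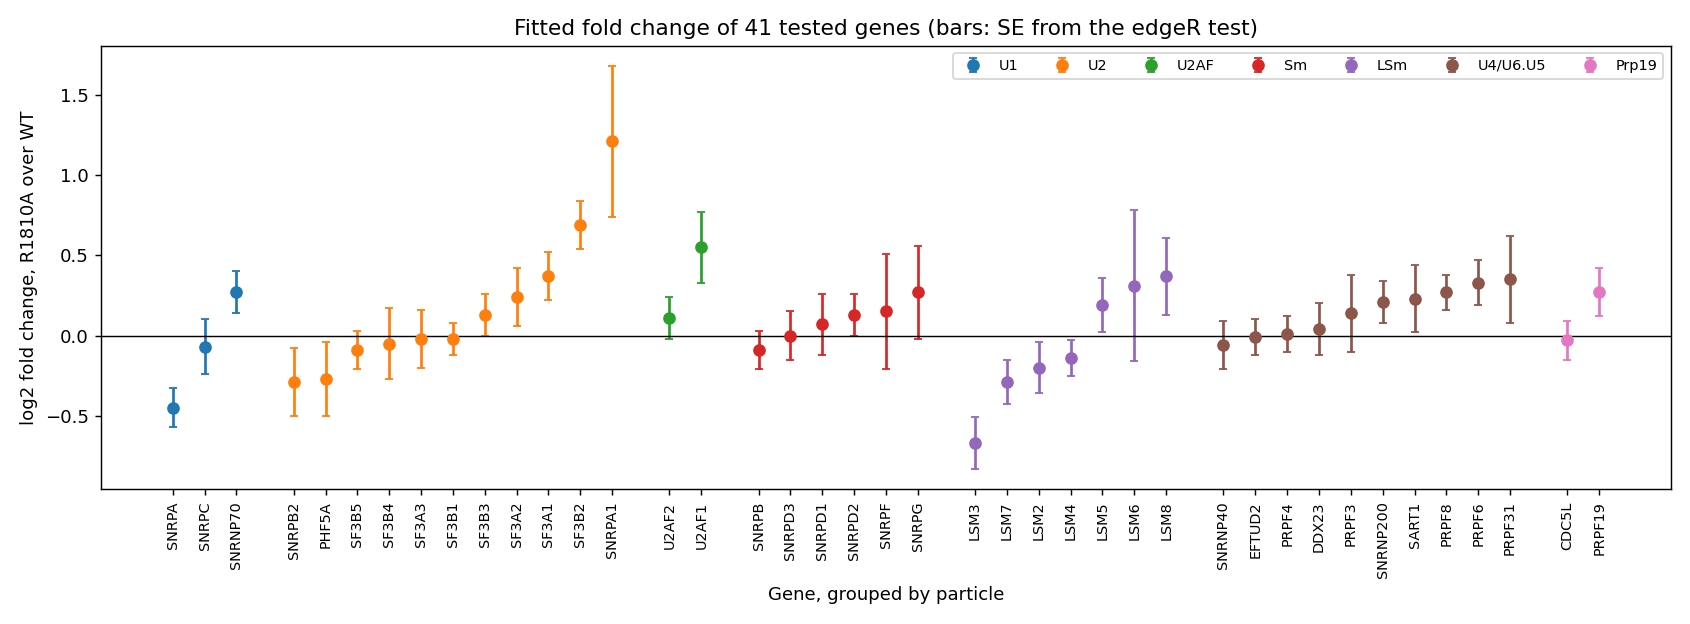
Log2 fold change of R1810A over WT (vertical) for the 41 tested genes, grouped by particle, with bars for the SE from the edgeR test. Values run from -0.67 for LSM3 to 1.21 for SNRPA1, and the U4/U6.U5 genes lie between -0.06 and 0.35.

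Of the U1 genes, SNRPA lay below WT in both R1810A libraries and SNRNP70 above it. SNRPA codes for the U1 A protein, which binds a loop of U1 snRNA and also regulates polyadenylation of its own messenger RNA. It stood at 179.8 and 181.9 CPM in R1810A and at 268 and 228 CPM in WT. Both R1810A libraries lay below both WT libraries, with close values in R1810A and a wider spread in WT. The log2 fold change was -0.45 (SE 0.12, edgeR adjusted p = 0.231) and ran from -0.58 to -0.34 over 12 alternatives. With all 4 libraries kept, the adjusted p ran from 0.0721 (edgeR, deposited total reads) to 0.74 (DESeq2). Because the groups do not overlap, a left-out library could hardly turn the direction of SNRPA.

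SNRNP70, the U1-70K protein that contacts the loop at the 5′ end of U1, had 308 and 266.5 CPM in R1810A and 216 and 261 CPM in WT. The lower R1810A library lay just above the higher WT library, and the log2 fold change was 0.27. SNRPC, the U1 C protein that helps pair U1 with the 5′ splice site, had 38.8 and 37.0 CPM in R1810A and 40.8 and 38.95 CPM in WT, a log2 fold change of -0.07.

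Shares within the U1 proteins do not depend on library scaling. SNRPA took 34.2% (exact 95% interval 31.3 to 37.0%) and 37.5% (34.5 to 40.5%) of the reads at the 3 genes in R1810A, against 51.1% (48.2 to 54.0%) and 43.3% (40.8 to 45.7%) in WT. SNRNP70 took 58.5% and 54.9% in R1810A and 41.2% and 49.4% in WT. The intervals of SNRPA do not overlap between groups, but those of the WT libraries do not overlap each other either, so WT varied beyond counting error. SNRPA was picked by its p in these same reads, so its separated shares add no support. Summed, the U1 genes made up 0.0519% and 0.0485% of counts in R1810A and 0.0515% and 0.0530% in WT, with overlapping groups. Of the deposited total reads they took 0.0273% and 0.0244% in R1810A and 0.0292% and 0.0293% in WT, without overlap. On that scale 36.4% of all genes tested lay below WT without overlap.

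The genes of the U2 proteins had a median log2 fold change of -0.02 over 11 members, 5 of them above 0. SF3B2, a subunit of SF3b that lies on the branch region and is methylated at an arginine by PRMT9, had the smallest p of the 41. It had 149 and 144 reads in R1810A and 92 and 140 reads in WT. After scaling these were 71.5 and 69.3 CPM in R1810A and 40.3 and 46.6 CPM in WT. The groups did not overlap, with R1810A higher by more than the distance within either group. The log2 fold change was 0.69 (SE 0.15, edgeR adjusted p = 0.116), it ran from 0.57 to 0.80 over 12 alternatives, and the adjusted p ran from 0.065 to 0.711.

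The other SF3b genes had log2 fold changes between -0.27 and 0.13. SF3B1, which holds the branch adenosine pocket together with PHF5A, had 698 and 724.5 CPM in R1810A and 725 and 713 CPM in WT, a log2 fold change of -0.02. The scaffold gene SF3B3 stood at 0.13, SF3B4 at -0.05, the small subunit SF3B5 at -0.09 and PHF5A at -0.27. SF3B5, the gene with the highest RPKM of all 42, had 161 and 149 RPKM in R1810A and 194 and 166 RPKM in WT. SF3B2 took 5.79% (4.92 to 6.76%) and 5.36% (4.54 to 6.28%) of the SF3b reads in R1810A, against 3.20% (2.59 to 3.91%) and 3.78% (3.19 to 4.45%) in WT. These intervals cover counting error only. They do not overlap between the groups, by a narrow gap (4.54% against 4.45%), and they overlap within each group. SF3B2 was picked by its p in these same reads, so the separated shares add no support.

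The SF3a genes, whose products join SF3b to the U2 core, were at log2 fold changes of 0.37 (SF3A1), 0.24 (SF3A2) and -0.02 (SF3A3). SF3A1 had 60.9 and 72.7 CPM in R1810A and 53.9 and 49.9 CPM in WT, without overlap (SE 0.15, edgeR adjusted p = 0.594). SNRPB2, the U2 B″ protein, had a log2 fold change of -0.29, with groups that overlapped after TMM scaling but not when divided by the deposited total reads.

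SNRPA1, the U2 A′ protein that pairs with B″, had the largest log2 fold change, 1.21 (SE 0.47, edgeR adjusted p = 0.547), on few reads. It had 12 and 19 reads in R1810A and 5 and 12 in WT, and leaving out 1 library gave log2 fold changes from 0.84 (R1810A replicate 2) to 1.74 (WT replicate 2). Its pseudogene copy held 18 and 12 reads in R1810A and 10 and 17 in WT, 57 in all beside 48 at the gene itself. Gene and copy together stood at 14.4 and 14.9 CPM in R1810A and 6.57 and 9.65 CPM in WT. The treatment of reads that match both places is not given in the sources used here, so the value of SNRPA1 alone is uncertain.

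U2AF recognises the 3′ splice site ahead of U2, with U2AF2 on the polypyrimidine tract and U2AF1 on the AG. U2AF1 had 66 and 66 reads in R1810A and 42 and 73 in WT. Scaled, these were 31.7 and 31.8 CPM in R1810A and 18.4 and 24.3 CPM in WT, with R1810A above WT (log2 fold change 0.55, SE 0.22, edgeR adjusted p = 0.551). U2AF2 had 441 and 417.6 CPM in R1810A and 450.4 and 349.5 CPM in WT, with overlapping groups and a log2 fold change of 0.11. Levels per length cannot be compared well within this pair, because the deposited length of U2AF1, 11112 bases, is 6.63 times its longest coding transcript in GENCODE 29.

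**Figure D3:**
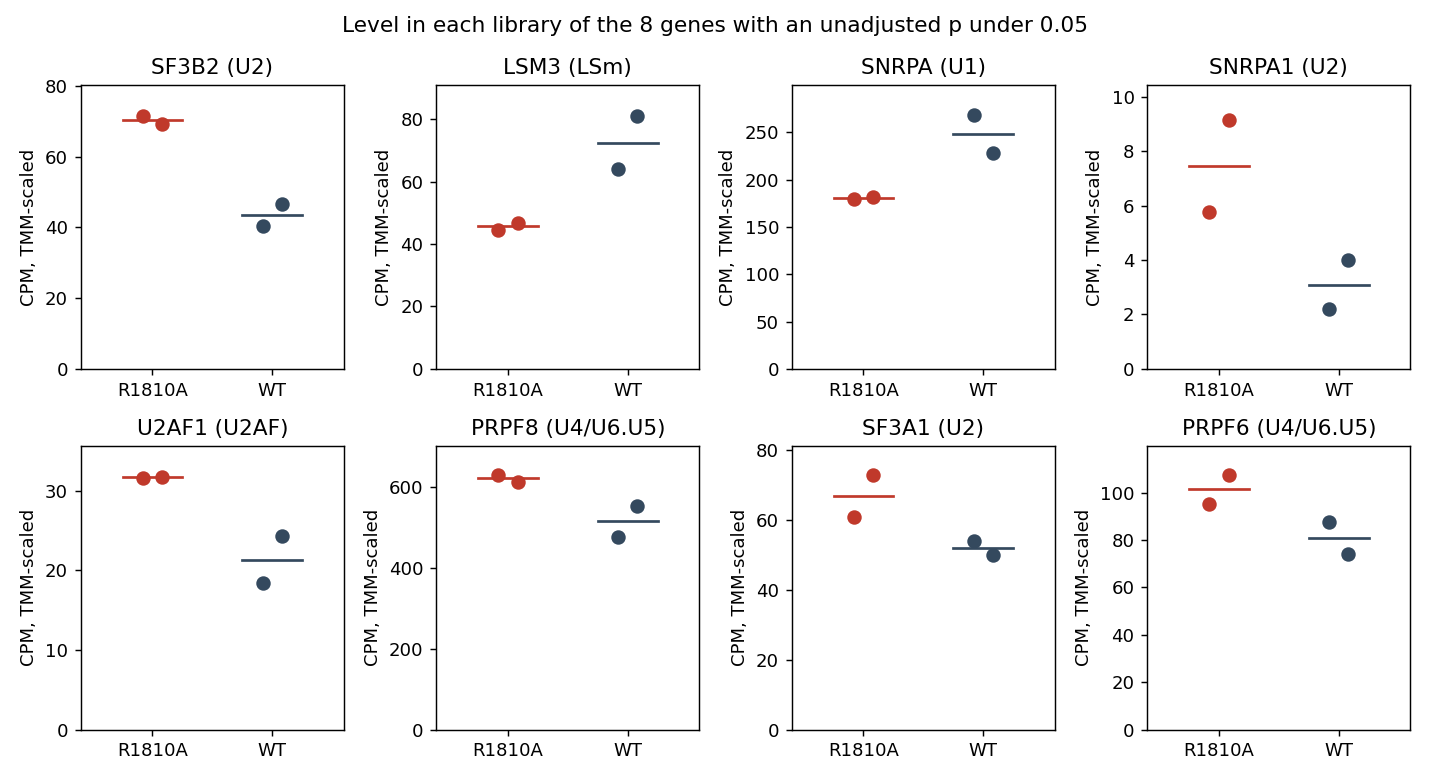
TMM-scaled CPM (vertical, from 0) in each R1810A and WT library for the 8 genes with an unadjusted p under 0.05. Points are libraries and lines are group means. In all 8 the groups do not overlap, with LSM3 and SNRPA below WT and the other 6 above.

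For SF3B2, LSM3 and SNRPA, the genes with the smallest p, the 250 bases before the RefSeq transcript start are shown from the GRCh38.p14 promoter table (reads were aligned to hg19). All 3 genes lie on the plus strand. Capitals mark each match, on either strand, to the TATA box TATAAA, the GC box GGGCGG, the CCAAT box, the ETS core CCGGAAG, the MYC E box CACGTG or the YY1 site AAGATGGCG. A match is a description of the letters and not a binding site.
SF3B2 chr11:66052114-66052363: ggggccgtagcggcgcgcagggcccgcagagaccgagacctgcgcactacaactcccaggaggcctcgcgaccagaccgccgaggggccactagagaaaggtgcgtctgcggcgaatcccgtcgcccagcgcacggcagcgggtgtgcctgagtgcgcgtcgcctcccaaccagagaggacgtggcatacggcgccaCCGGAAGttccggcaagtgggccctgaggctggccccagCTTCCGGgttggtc
LSM3 chr3:14178567-14178816: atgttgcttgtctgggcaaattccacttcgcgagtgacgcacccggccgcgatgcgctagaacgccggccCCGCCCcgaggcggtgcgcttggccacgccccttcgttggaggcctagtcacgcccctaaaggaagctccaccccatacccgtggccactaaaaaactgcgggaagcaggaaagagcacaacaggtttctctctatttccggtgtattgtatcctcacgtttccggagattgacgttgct
SNRPA chr19:40750953-40751202: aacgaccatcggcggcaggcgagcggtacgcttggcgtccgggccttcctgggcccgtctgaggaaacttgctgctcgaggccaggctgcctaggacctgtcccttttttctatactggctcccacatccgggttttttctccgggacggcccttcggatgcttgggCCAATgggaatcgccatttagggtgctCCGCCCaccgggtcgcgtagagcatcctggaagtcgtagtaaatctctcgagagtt

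SF3B2 has an ETS core beginning 53 bases before the start and another, on the other strand, beginning 14 bases before it. SNRPA has CCAAT at 83 bases and a GC box at 56 bases before the start, and LSM3 has a GC box at 180 bases. Over the 37 of the 42 genes found in the table, with 45 start windows because some genes have several, 20 windows (44.4%) held the ETS core, compared with 15.7% of the 11567 windows of all genes tested and 8.52% of all 35116 windows. The windows of SNRPA and LSM3 were not among the 20. Of the genes higher at an unadjusted edgeR p under 0.05, SF3B2, SNRPA1, SF3A1 and PRPF6 held the ETS core, and U2AF1 and PRPF8 did not. Genes with negative log2 fold changes held it too, such as SNRPC, SNRPB2 and SNRPB. The GC box stood in 51.1% of the 45 windows and in 64.0% of those of all genes tested, CCAAT in 31.1% and 34.4%, the E box in 6.67% and 8.69%, TATAAA in 2.22% and 5.58% and the YY1 site in 0% and 1.21%. These shares are descriptions, without a test.

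The Sm genes code for the ring that is loaded on snRNA in the cytoplasm with help of the SMN complex. Their products enter the ring in equal numbers, but their measured RPKM did not stand at equal levels. SNRPB averaged 133.5 ± 3.25 RPKM in R1810A and 155 ± 20.9 RPKM in WT (SD, n = 2 each). SNRPD2 averaged 135 ± 12.9 RPKM in R1810A and 135 ± 20.2 RPKM in WT. These 2 did not differ from each other beyond the spread in R1810A, and both lay far above SNRPD3 (12.8 ± 2.19 RPKM in R1810A, 13.9 ± 0.137 RPKM in WT) and SNRPD1 (10.3 ± 1.07 RPKM in R1810A, 10.7 ± 0.680 RPKM in WT).

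In deposited RPKM, SNRPF, SNRPG and SNRPE came next. Per length of the longest coding transcript, SNRPG would lie above SNRPD1 and SNRPF. SNRPF stood at 5.47 ± 1.65 RPKM in R1810A and 5.29 ± 0.480 RPKM in WT, and SNRPG at 3.51 ± 0.0678 RPKM in R1810A and 3.14 ± 0.453 RPKM in WT. SNRPE, the lowest of all 42, had 8 and 3 reads in R1810A and 2 and 7 in WT. The files list 12 pseudogene copies named after SNRPG, 9 after SNRPE and 4 after SNRPF, but 2 after SNRPD2, 1 after SNRPB and none after SNRPD1 and SNRPD3. Over all libraries the copies held 3 reads for SNRPG, 10 for SNRPE, 6 for SNRPF, 116 for SNRPD2 and 119 for SNRPB. Whether reads shared with copies lowered these levels was not tested.

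Between the groups the Sm genes lay close to 0. The 6 tested members had log2 fold changes from -0.09 (SNRPB) to 0.27 (SNRPG), with a median of 0.10. The median was -0.06 without R1810A replicate 1 and -0.02 when scaled by the deposited total reads. SNRPB had 338 and 337 CPM in R1810A and 393.5 and 326 CPM in WT, with R1810A between the WT libraries. SNRPD3 stood at 76.7 and 62.1 CPM in R1810A and 68.8 and 69.9 CPM in WT, a log2 fold change of 0.00 (SE 0.15). SNRPG was the only one whose groups did not overlap, with 12.5 and 12.5 CPM in R1810A and 9.20 and 11.3 CPM in WT. SNRPD1 (0.07), SNRPD2 (0.13) and SNRPF (0.15) had overlapping groups.

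The LSm genes had a median log2 fold change of -0.14 over 7 members, with 4 below 0 and 3 above. Without WT replicate 1 the median was -0.09, and it was -0.26 when scaled by the deposited total reads. All 4 below 0 had both R1810A libraries below both WT libraries, and 2 of the 3 above 0 had both above. These are 57.1% and 28.6% of the 7, against 19.5% and 19.8% of all genes tested. Divided by the deposited total reads, the same 4 lay below (57.1%, against 36.4% of all genes tested). On that scale LSM8 alone lay above (14.3%, against 9.77%). LSM3 had 93 and 97 reads in R1810A and 146 and 243 in WT. Scaled, it stood at 44.6 and 46.7 CPM in R1810A and 64.0 and 80.9 CPM in WT. The R1810A values were close together and the WT values apart. The log2 fold change was -0.67 (SE 0.16, edgeR adjusted p = 0.186).

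Without WT replicate 1, LSM3 was the only one of the 41 genes to pass the threshold (log2 fold change -0.83, edgeR adjusted p = 0.040). That fit has 1 WT library, which is assumed to vary like the R1810A libraries, since these alone give the spread. LSM3 did not pass in the other 11 alternatives, and without WT replicate 2 the log2 fold change was -0.49. The adjusted p ran from 0.040 to 0.892 over 12 alternatives. In GENCODE 29, 318 exon bases of LSM3 (8.34% of its exons) overlap XPC on the opposite strand. XPC had 43 and 59 reads in R1810A and 61 and 63 in WT, and the use of strand in the counting is not given in the sources used here.

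LSM7 had 69.5 and 65.9 CPM in R1810A and 88.95 and 77.6 CPM in WT, a log2 fold change of -0.29. LSM2 stood at -0.20 and LSM4, the LSm gene with the highest RPKM, at -0.14, with 82.8 and 78.7 RPKM in R1810A and 99.96 and 93.2 RPKM in WT. LSM8, which marks the nuclear ring on U6, had 24.5 and 20.2 CPM in R1810A and 18.0 and 16.6 CPM in WT, a log2 fold change of 0.37. LSM5 stood at 0.19 without overlap, and LSM6 at 0.31 with overlapping groups on 57 reads in all. LSM6 has no stable direction, with -0.17 without R1810A replicate 1, -0.06 without WT replicate 1, 0.67 without R1810A replicate 2 and 0.93 without WT replicate 2.

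LSM2 to LSM7 also form the cytoplasmic ring of messenger RNA decay, in which LSM1 replaces LSM8. LSM1 stood at 4.796 and 5.29 CPM in R1810A and 5.70 and 4.33 CPM in WT (log2 fold change 0.03). The LSm genes together took 0.0416% (0.0389 to 0.0444%) and 0.0416% (0.0389 to 0.0445%) of counts in R1810A, against 0.0463% (0.0436 to 0.0492%) and 0.0475% (0.0451 to 0.0501%) in WT. The groups do not overlap, although the interval of WT replicate 1 overlaps those of R1810A. Of the deposited total reads they took 0.0219% (0.0205 to 0.0234%) and 0.0210% (0.0196 to 0.0224%) in R1810A. The WT shares on that scale were 0.0263% (0.0248 to 0.0279%) and 0.0263% (0.0250 to 0.0277%). There the counting intervals do not overlap between groups, on a scale where 36.4% of all genes tested lay below WT without overlap. LSM3 took 10.6% (8.61 to 12.8%) and 11.2% (9.18 to 13.5%) of the LSm reads in R1810A. Its WT shares were 13.5% (11.6 to 15.7%) and 17.1% (15.2 to 19.1%), and the interval of WT replicate 1 overlaps those of both R1810A libraries.

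The U4/U6.U5 genes had a median log2 fold change of 0.17 over 10 members, 8 of them above 0, and 5 had R1810A above WT without overlap (background 19.8%). Divided by the deposited total reads, 2 of the 10 lay above (PRPF6 and PRPF8, 20.0%, background 9.77%). On that scale 3 lay below (PRPF4, SNRNP40 and EFTUD2, 30.0%, background 36.4%). The median was 0.05 without R1810A replicate 2, 0.11 without WT replicate 2 and 0.05 when scaled by the deposited total reads. PRPF8, the large U5 protein at the heart of the catalytic centre and the gene with the highest RPKM of this particle, had 630.1 and 611 CPM in R1810A and 476 and 553 CPM in WT. The lower R1810A library exceeded the higher WT library by less than the WT libraries differed from each other (log2 fold change 0.27, SE 0.11, edgeR adjusted p = 0.588).

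PRPF6, which bridges U5 and U4/U6, had 95.4 and 107 CPM in R1810A and 87.6 and 74.2 CPM in WT (log2 fold change 0.33, SE 0.14, edgeR adjusted p = 0.594). PRPF31, a U4 protein mutated in inherited retinal degeneration, had the largest log2 fold change of the particle, 0.35 (SE 0.27). Its values were 14.9 and 21.6 CPM in R1810A and 14.0 and 14.7 CPM in WT. Most of that difference came from R1810A replicate 2, and 22.0% of its exon bases in GENCODE 29 overlap an antisense gene.

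SNRNP200, the helicase that unwinds U4 from U6, had 250.3 and 316 CPM in R1810A and 250.2 and 239 CPM in WT, so that R1810A replicate 1 was level with WT. SART1, needed to recruit the tri-snRNP, stood at a log2 fold change of 0.23, and PRPF3, a U4/U6 protein, at 0.14. The remaining genes lay near 0. EFTUD2, the U5 GTPase, had 327 and 312 CPM in R1810A and 330.4 and 312 CPM in WT (-0.01), PRPF4 stood at 0.01, the helicase DDX23 at 0.04 and SNRNP40, a U5 WD-repeat protein, at -0.06.

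The U4/U6.U5 genes together made up 0.161% (0.156 to 0.167%) and 0.168% (0.163 to 0.174%) of counts in R1810A and 0.145% (0.140 to 0.150%) and 0.150% (0.146 to 0.155%) in WT. Neither the values nor the counting intervals overlap between the groups on this scale. Of the deposited total reads they took 0.0850% and 0.0847% in R1810A and 0.0824% and 0.0831% in WT, and there the intervals overlap (0.0819 to 0.0879% over both R1810A libraries, 0.0796 to 0.0856% over both WT libraries). The sum is mostly PRPF8, which took 38.5% and 36.3% of these reads in R1810A and 32.2% and 37.0% in WT, and EFTUD2.

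**Figure D4:**
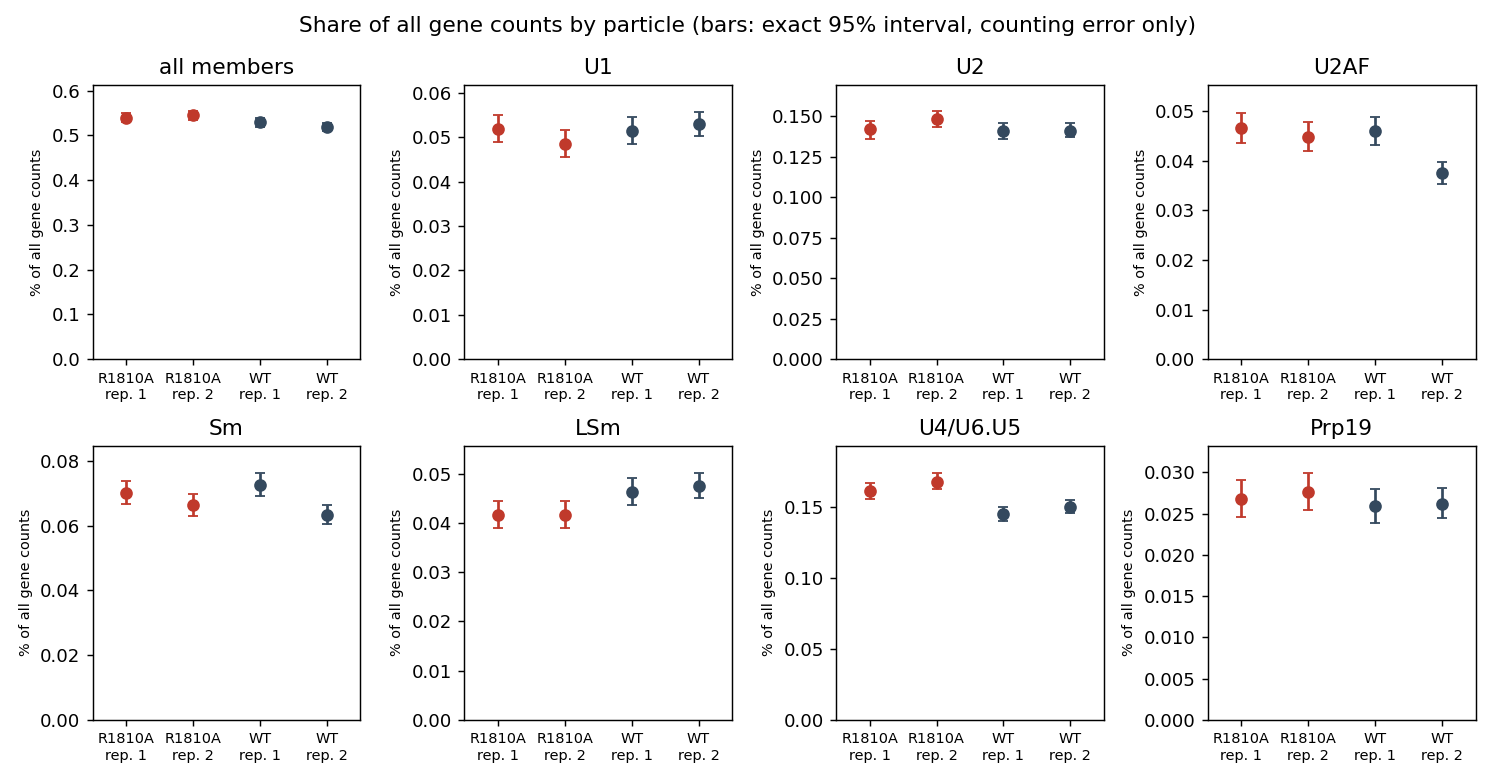
Share of all gene counts (vertical, percent, from 0) taken by all 42 genes and by each particle in each R1810A and WT library, with exact 95% intervals for counting error. The U4/U6.U5 genes lie higher (0.161% and 0.168% in R1810A, against 0.145% and 0.150% in WT) and the LSm genes lower (0.0416% in each R1810A library, against 0.0463% and 0.0475% in WT).

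Of the Prp19 complex, PRPF19, its ubiquitin ligase, had 96.4 and 91.9 CPM in R1810A and 68.4 and 87.2 CPM in WT (log2 fold change 0.27), with R1810A above WT. CDC5L, a scaffold of the same complex, had 175.5 and 184 CPM in R1810A and 195 and 174 CPM in WT (-0.03), with overlapping groups. Divided by the deposited total reads, CDC5L lay below WT without overlap.

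Fold changes varied with gene length, and the part of length in them was not tested beyond the offsets below. Over the 41 genes, log2 fold change and deposited length had a Spearman rho of 0.38, and over all 10674 genes tested a rho of 0.13, both across genes, which share libraries and are not replicates. The median log2 fold change of all genes tested was -0.04 for lengths over 1000 to 2000 bases and 0.08 over 8000 bases. Among the members, the median was 0.02 for the 4 up to 1000 bases, -0.12 for the 10 of 1000 to 2000, 0.23 for the 15 of 2000 to 4000, 0.14 for the 10 of 4000 to 8000 and 0.38 for the 2 longer ones, so it did not climb steadily with length. With offsets for gene length in the fit, the median of the LSm genes was -0.10 and that of the U4/U6.U5 genes 0.12, and SF3B2, LSM3 and SNRPA stood at 0.70, -0.67 and -0.42.

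**Figure D5:**
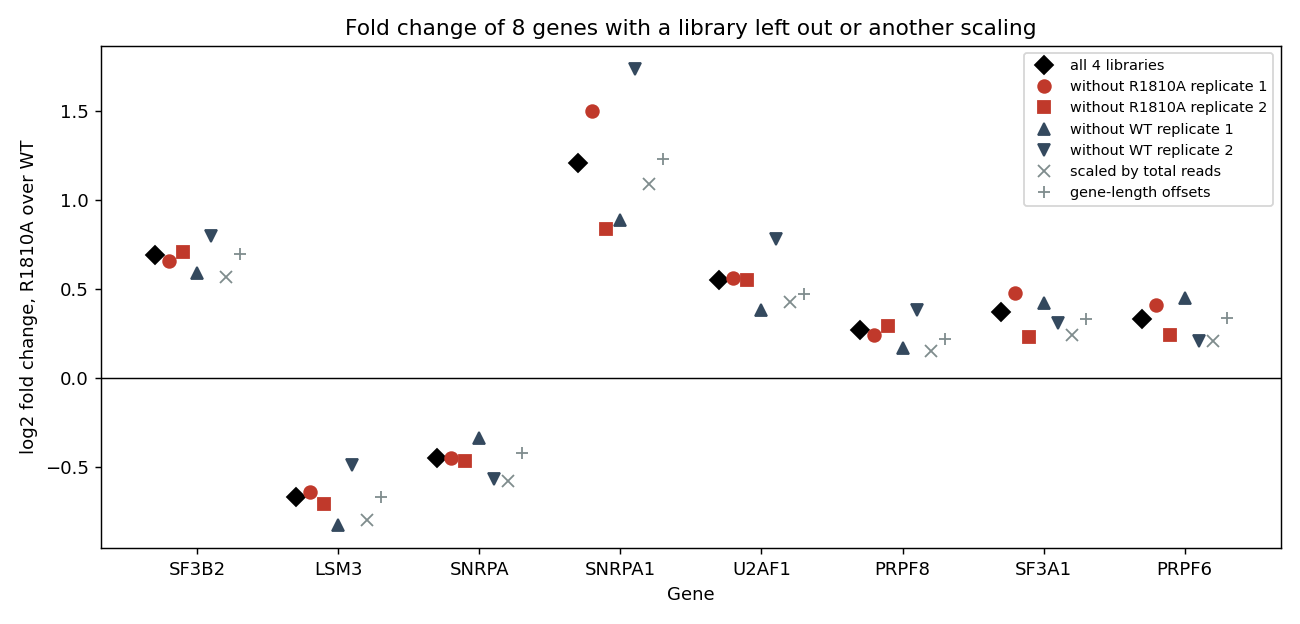
Log2 fold change of R1810A over WT (vertical) of the 8 genes with an unadjusted p under 0.05, with all 4 libraries, with each library left out, scaled by the deposited total reads, and with gene-length offsets. Each gene stays on its side of 0, which a left-out library could hardly change, because the groups of these genes do not overlap. SNRPA1 ranges most, from 0.84 to 1.74.

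Other spliceosome genes, a list of 70 matched genes of which 68 were tested, held no called gene with edgeR, and 4 were higher (5.88%, background 4.94%) and 0 lower (background 3.06%) at an unadjusted p under 0.05. Without overlap, 21 lay above WT (30.9%, background 19.8%) and 6 below (8.82%, background 19.5%) after TMM scaling. These counts were not made on the deposited total reads, on which the balance of the members and of all genes turned. The median log2 fold change was 0.02, with 40 above 0. CWC22, which brings the exon junction complex to the spliceosome, stood at 20.6 and 25.0 CPM in R1810A and 13.6 and 15.3 CPM in WT (0.65, SE 0.24, edgeR adjusted p = 0.523). LUC7L3, a U1-associated protein, stood at 0.41, DDX46, the helicase that acts on U2 before branch site binding, at 0.26, and USP39, a tri-snRNP protein, at 0.29.

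By class, the medians were 0.11 for 11 further U2-related genes, 0.10 for 5 U1-associated genes, 0.04 for 18 genes of the Prp19-related complexes, 0.02 for 7 tested genes of the minor spliceosome, 0.00 for 4 of the exon junction complex, -0.06 for 8 of the second step and release, and -0.07 for 10 further tri-snRNP genes. SF3B6, the SF3b subunit outside the 42, had 113 and 107 CPM in R1810A and 112 and 107 CPM in WT (0.01). SNRPN, a paralog of SNRPB, stood at -0.01, and LSM10, which sits in the ring of U7 snRNA, at 0.03. The 5 tested genes of other Sm-like proteins had a median of 0.03.

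Small nucleolar RNA genes lie in introns of few of the 42. GENCODE 29 places SNORD111 and SNORD111B in SF3B3 on its strand. SNORD111 had 2 and 1 reads in R1810A and 0 and 0 in WT, and SNORD111B 1 and 0 reads in R1810A and 0 and 0 in WT, too few to test. Exons of 15 of the 42 genes overlap another gene in GENCODE 29, for 14 of them on the opposite strand, over 0.353 to 22.0% of their exon bases. Reads at pseudogene copies reached 5% of the reads of the gene for 9 of the 42, with 73.9% for SNRPC and 32.2% for SNRNP40 besides SNRPA1. SNRPE had 10 such reads beside its own 20, and the share was 12.1% for PHF5A and between 5% and 8.0% for SNRPF, SF3A3, SNRPD2 and SF3A2. With its copies, SNRPC stood at 63.8 and 68.3 CPM in R1810A and 72.7 and 66.2 CPM in WT, and SNRNP40 at 86.3 and 92.4 CPM in R1810A and 102 and 85.6 CPM in WT, so that for each of these genes the groups overlap. PHF5A with its copies also overlapped, at 19.7 and 25.0 CPM in R1810A and 28.5 and 24.6 CPM in WT. On their own reads, SNRPC and PHF5A lay below WT without overlap. SF3A2 went the other way: with its copy it lay above WT without overlap (57.1 and 47.1 CPM in R1810A, 38.1 and 45.6 CPM in WT).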

How the data were processed

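The deposited files give, for each library, raw read counts per Ensembl gene, RPKM, total reads and gene length. The submitters' processing notes name Bowtie and hg19; the sources used here give no counting program, annotation or strand setting. The authors' deposited RPKM equals the count divided by the deposited length and total reads, within a relative tolerance of 0.0001, so counts were tested and RPKM was used for levels. Symbols came from a gene table and GENCODE 29 (GRCh38) for 40926 of 51714 identifiers. R1810A was compared with WT by edgeR 4.0.16 in R 4.3.3 (filterByExpr with a minimum count of 10, TMM, glmQLFit, glmQLFTest, group only), adjusted by Benjamini-Hochberg over 10674 genes. The SE is the absolute log2 fold change over the square root of F. DESeq2 1.42.0 and limma-voom (limma 3.58.1) were alternatives, with the others described below, and the edgeR, DESeq2 and limma-voom steps were tested on simulated counts. All 42 genes are named, a test is printed for those with an unadjusted p under 0.05, and values per library are given for these and for the highest and most different gene of each particle. Further genes, the promoter motifs, the overlapping exons, the shares of deposited total reads and the levels per longest transcript were added after values were seen. The members and lists were chosen with earlier results of these data known. Of the listed markers and spliceosome genes, TRAC, RBM8A and LSM14A had no matched identifier and were not analysed here. A further B cell marker is not reported here.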

Additional observations from a re-analysis of the deposited data

How the results depend on the processing

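None of the 42 genes passed the threshold in any of the 12 alternatives except LSM3 without WT replicate 1, where the lone WT library is assumed to vary like R1810A, so with a library left out 0 to 1 genes were lower and 0 higher. SF3B2, LSM3, SNRPA, SNRPA1, U2AF1, PRPF8, SF3A1 and PRPF6 kept their direction in all 12. These genes were picked by p in the same libraries, and their groups do not overlap. A left-out library could therefore hardly turn their direction, and the kept direction adds no support. With deposited total reads as library sizes, the all-gene median was -0.13 and that of the 41 tested genes -0.02 (log2), a distance of 0.11. Then 2 of the 41 were higher and 4 lower at an unadjusted p under 0.05, and 5 of all genes were called lower. On that scale, added after values were seen, 8 of the 41 lay above WT without overlap (background 9.77%) and 16 below (background 36.4%). TMM gave 14 (background 19.8%) and 7 (background 19.5%). DESeq2 gave 1 higher at that unadjusted limit and 2 of all genes lower at the threshold. Outside the main fit, no share of all genes at the unadjusted limit is given beside these member counts. With a library left out, 1 to 6 were higher and 2 to 4 lower at that limit, the median was 0.00 to 0.06, and of all genes 2 to 113 were called higher and 0 to 40 lower. All genes called higher and lower numbered 78 and 7 with no filter, 19 and 2 with gene-length offsets, and 40 and 4 with robust edgeR, while limma-voom called 24 higher. The labels do not say whether same-numbered libraries were handled together. The correlation of same-numbered deviations across genes was -0.0401, and with 2 pairs it cannot decide this. With the replicate block 73 of all genes were called higher and 4 lower, none of the 41, and their median stayed at 0.11. Of 396 values of the other 33 tested genes, 36 moved by more than the SD between replicates. Low read counts limit SNRPE, SNRPA1, SNRPF and LSM6.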
